A study of Mus musculus with 13 samples.

Results

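Interferon-stimulated genes were examined in RNA-seq of mouse Th17 cells, the helper T cells that make interleukin 17. The set held 44 genes, named by symbol for their known induction by interferons. The set was chosen with earlier results of these data known. Each of its genes matched a gene among 56941 gene IDs in the count table. Of the 44, 10 form the class mainly driven by interferon gamma (Irf1, Gbp2 to Gbp8, Igtp and Irgm1). Another 10 form the type I class (Isg15, Mx1 and the Ifit, Oas and Oasl genes). The other 24 were not assigned to either class, which does not say which interferon induces them. Naive CD4+ T cells from spleen were activated and kept under Th17-polarizing conditions for 72 hours. The KO group held 3 libraries from Chaf1bfl/fl;Il17fCre+ mice, whose Cre is driven from Il17f, so that deletion needs a cell that has turned Il17f on. The WT group held 3 libraries labelled Chaf1bWT, and the labels do not say whether WT mice carried Cre or the floxed allele. The labels call the replicates biological but name no animals and give no age, so a p-value here rests on how these 3 libraries of each genotype differ among themselves. Chaf1b encodes a subunit of CAF-1, the chaperone that places histones on newly copied DNA.

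Interferons are secreted proteins that signal to neighbouring cells. Interferon gamma, made by T cells and natural killer cells, binds Ifngr1 and Ifngr2 and acts through gamma-activated sites in DNA, whereas type I interferons bind Ifnar1 and Ifnar2 and act through a complex that holds Stat2 and Irf9 and binds interferon-stimulated response elements. The genes turned on in this way encode transcription factors, antiviral effectors, nucleic acid sensors and GTPases that attack intracellular pathogens, and in Th17 cultures interferon gamma is known to hold back Th17 differentiation.

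Promoter windows of members are shown because both classes are read through short DNA elements. RefSeq windows on GRCm38.p6, from 250 bases before to 50 bases after a start site, were found for 31 of the 44 members. Of the members called higher in KO below, only Isg20 had a window, and none was found for Ly6a, Parp9 or Gbp8. The response element core was searched as GAAA, any 2 bases and GAAA again, and the gamma-activated site as TTCNNNGAA, on both strands, and matches of one motif may overlap the other. A gene with several start sites has several windows and was counted if any of them held a match, for members and all genes alike. The core was found in 18 of 31 members (58.1%), against 1079 of 27025 genes with a window (3.99%). The gamma-activated site was found in 12 of 31 members (38.7%), against 2582 of 27025 genes (9.55%). Among the mainly gamma-driven members, 6 of 7 genes with a window held the core and 4 held the gamma-activated site. Among type I members, 5 of 8 held the core and 2 the gamma-activated site. A match describes the letters and does not show binding. The windows below belong to the most firmly called member (Isg20), to members of each class that were higher by point estimate (Isg15, Oas3, Gbp7, Igtp) and to one that was not (Gbp2); capitals mark the motifs.
Isg20, chr7:78913174-78913473, plus strand: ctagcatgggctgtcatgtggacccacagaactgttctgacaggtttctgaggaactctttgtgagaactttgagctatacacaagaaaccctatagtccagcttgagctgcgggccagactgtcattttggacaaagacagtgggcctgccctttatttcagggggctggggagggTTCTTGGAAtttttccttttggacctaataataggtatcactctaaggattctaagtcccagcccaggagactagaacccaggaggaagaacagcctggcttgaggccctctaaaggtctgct
Isg15, chr4:156200769-156201068, minus strand: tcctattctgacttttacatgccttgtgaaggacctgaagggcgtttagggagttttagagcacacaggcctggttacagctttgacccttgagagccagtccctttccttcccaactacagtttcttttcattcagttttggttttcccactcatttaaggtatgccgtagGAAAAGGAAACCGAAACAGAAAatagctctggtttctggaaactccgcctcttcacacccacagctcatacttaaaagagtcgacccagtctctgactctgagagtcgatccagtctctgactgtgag
Oas3, chr5:120777610-120777909, minus strand: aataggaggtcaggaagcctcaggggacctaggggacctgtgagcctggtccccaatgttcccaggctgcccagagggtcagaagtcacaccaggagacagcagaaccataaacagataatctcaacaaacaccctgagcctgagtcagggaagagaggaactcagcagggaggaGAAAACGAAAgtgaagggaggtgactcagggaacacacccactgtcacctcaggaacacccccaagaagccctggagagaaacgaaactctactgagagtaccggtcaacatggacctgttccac
Gbp7, chr3:142530086-142530385, plus strand: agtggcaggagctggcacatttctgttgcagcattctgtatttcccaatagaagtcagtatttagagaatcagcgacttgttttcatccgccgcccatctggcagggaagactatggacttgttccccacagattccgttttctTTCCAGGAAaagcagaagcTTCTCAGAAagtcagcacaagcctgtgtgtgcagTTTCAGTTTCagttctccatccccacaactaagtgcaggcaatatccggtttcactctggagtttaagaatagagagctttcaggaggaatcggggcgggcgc
Igtp, chr11:58199306-58199605, plus strand: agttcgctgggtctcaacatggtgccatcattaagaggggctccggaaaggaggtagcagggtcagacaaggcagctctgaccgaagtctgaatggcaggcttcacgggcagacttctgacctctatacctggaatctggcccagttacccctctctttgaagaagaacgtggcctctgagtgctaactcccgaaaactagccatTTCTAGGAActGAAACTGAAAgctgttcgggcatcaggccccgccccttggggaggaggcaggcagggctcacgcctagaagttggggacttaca
Gbp2, chr3:142620413-142620712, plus strand: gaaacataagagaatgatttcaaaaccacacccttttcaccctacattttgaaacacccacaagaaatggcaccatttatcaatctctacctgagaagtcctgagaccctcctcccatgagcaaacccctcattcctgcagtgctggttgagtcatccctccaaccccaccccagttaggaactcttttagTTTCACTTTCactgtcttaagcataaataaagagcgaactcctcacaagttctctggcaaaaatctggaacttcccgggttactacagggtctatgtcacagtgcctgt
In these windows Isg20 held a gamma-activated site and no core, Isg15 held 3 overlapping cores, Oas3 and Gbp2 held 1 core each, Gbp7 held 1 core and 2 gamma-activated sites, and Igtp held 1 of each. The other windows of Isg20, starting at 78913515 and 78913985, held neither motif.

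Total counts were 35708879 to 38395131 in KO libraries and 38099488 to 45232055 in WT libraries, and 3 counts, taken as the limit that a count of 0 allows, were 0.0659 to 0.0855 on the counts-per-million scale (CPM). Pairs of KO libraries differed with a chi-square per degree of freedom of 4.19 to 4.53, against 7.54 for WT replicates 2 and 3 and 18.8 and 33.1 for the WT pairs that include replicate 1, so WT replicate 1 stood apart. Chaf1b itself had 16.3, 14.9 and 13.5 CPM in KO libraries, against 13.2, 11.4 and 11.5 CPM in WT libraries. Every KO library was above every WT library, with a log2 fold change of 0.31 ± 0.11 (SE, adjusted p = 0.130, edgeR quasi-likelihood test with Benjamini-Hochberg adjustment). The deleted part of the gene is not given in the labels, so this level does not check the genotype, and KO and WT mean the libraries so labelled. The CD4 T cell markers were all detected, with summed levels of 1484 to 1527 CPM in KO libraries and 1465 to 1704 CPM in WT libraries.

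The comparison of KO with WT asked whether interferon-stimulated genes differ when Chaf1b is deleted in Th17 cells. Isg20, Ly6a, Parp9 and Gbp8 rose in KO cells by 1.57 to 2.52 times, and no member fell. Of the 44 members, 35 passed the filter on low counts and 9 did not. The 4 that rose were 11.4% of those tested, against 3.92% of all 14681 tested genes called higher; 0 members were called lower, against 2.47% of all tested genes, and 6.39% of all tested genes were called in either direction. The median log2 fold change of the 35 was 0.28, with 27 above 0 and 8 below, and that of all tested genes was -0.01. In 15 of the 35 every KO library was above every WT library, against 14.4% of all tested genes, and in 0 every KO library was below, against 12.4%. By the same edgeR test 15 members had an unadjusted p under 0.05, all with a fold change above 0, against 21.1% of all tested genes in either direction. Both sets of 15 include Mx1 and Xaf1, which would not have passed the filter on their WT libraries alone. DESeq2 called 6 members and limma-voom 4, all higher in KO. The share of all genes called by those tools is not given, here or for the classes and lists below. Counts by those tools therefore do not set members, classes or lists apart. In cultures of this kind a larger share of responding cells and more RNA in each cell cannot be told apart.

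The count depended on which libraries were kept. Of the 4 calls, 3 were lost without KO replicate 1, without KO replicate 2 or without WT replicate 2. Leaving out KO replicate 3 lost 2, and leaving out WT replicate 3 lost 1 and gained 1. Without WT replicate 1 the count rose. Then 15 of 38 tested members (39.5%) were called, all higher in KO, against 10.6% of 15039 tested genes called higher, and all 4 called members were among them. The other 11 were Irf1, Isg15, Mx1, Oas3, Bst2, Ddx58, Trim30a, Dtx3l, Igtp, Irgm2 and Iigp1. Iigp1 did not pass the filter with all libraries kept. It entered here only through its KO libraries (10, 6 and 18 counts, against 2 and 0 in the WT libraries left), so its call carries no weight of its own. The call of Mx1 carries none either, since its WT libraries left, with 2 and 16 counts, would not have passed the filter alone. WT replicate 1 had the highest level among the WT libraries for 25 of the 35 tested members, and WT replicate 3 the lowest for 18. The median member had a coefficient of variation of 10.6% over KO libraries and 17.2% over WT libraries, against 6.2% and 10% for all tested genes.

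**Figure D1:**
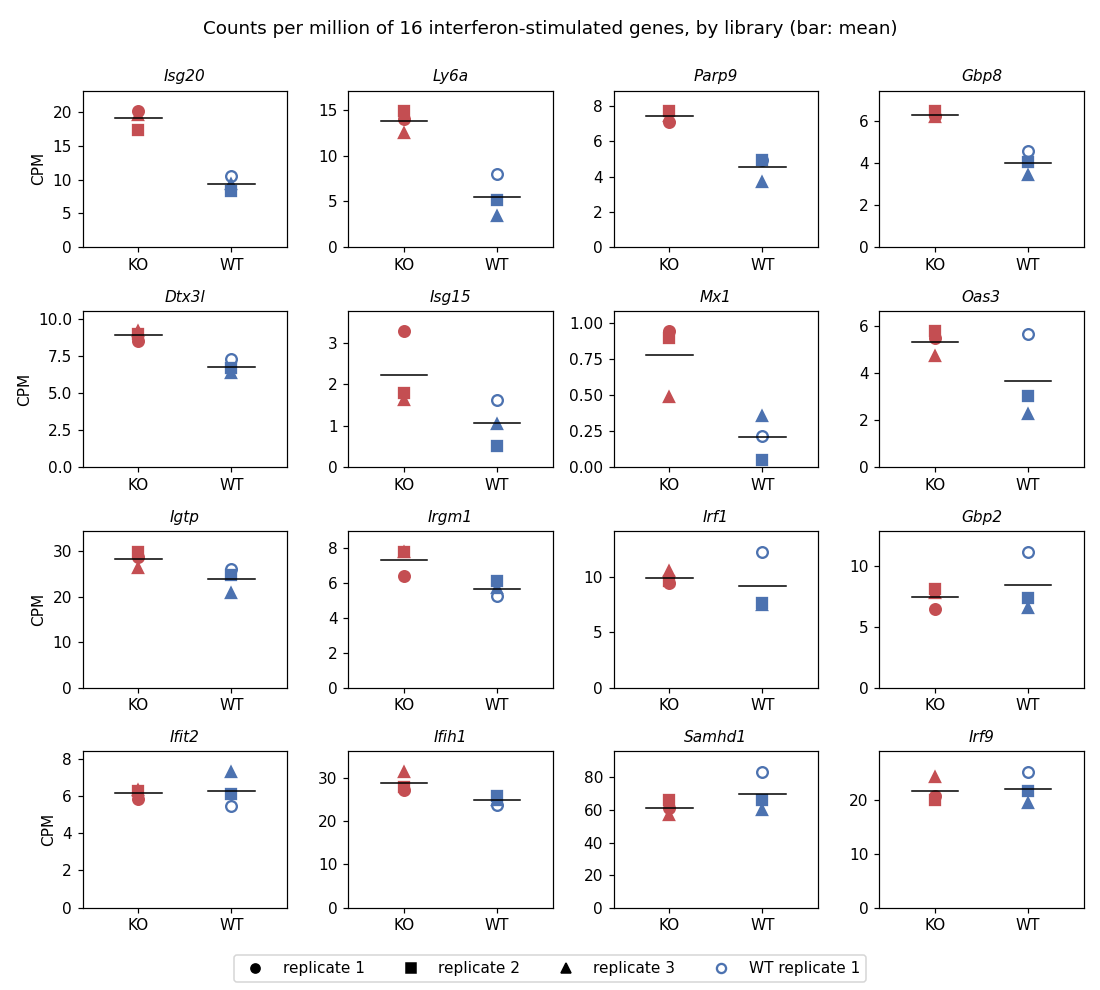
Level of 16 members in CPM (y axis, from 0) in each KO and WT library, with a bar at the group mean and WT replicate 1 as an open circle. Isg20, Ly6a, Parp9 and Gbp8 show no overlap between KO and WT, while for Irf1, Gbp2, Irf9 and Oas3 WT replicate 1 lies within or above the KO libraries.

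The members that rose carry different roles. Isg20, an exonuclease that degrades viral RNA, had 20.2, 17.4 and 19.6 CPM in KO libraries, against 10.5, 8.37 and 9.42 CPM in WT libraries. The groups did not overlap, and the lowest KO library lay well above the highest WT library. Its log2 fold change was 1.02 ± 0.11 (SE; edgeR quasi-likelihood test, Benjamini-Hochberg adjusted p = 3.74e-04), and it stayed past the threshold under each alternative that was run. Ly6a, a lipid-anchored surface protein of activated lymphocytes and stem cells, had 14.0, 14.9 and 12.5 CPM in KO libraries, against 7.97, 5.16 and 3.34 CPM in WT libraries. Its WT libraries were spread widely, yet all 3 lay below the KO libraries. The log2 fold change of Ly6a was 1.34 ± 0.25 (SE; edgeR adjusted p = 0.0147). Without KO replicate 1, KO replicate 2 or WT replicate 2 it missed the threshold, with adjusted p of 0.0557, 0.0593 and 0.0579.

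Parp9, a macrodomain protein that pairs with the ubiquitin ligase Dtx3l, had 7.09, 7.73 and 7.44 CPM in KO libraries, against 4.97, 4.93 and 3.67 CPM in WT libraries. KO libraries were close together and all above WT. The log2 fold change of Parp9 was 0.72 ± 0.15 (SE; edgeR adjusted p = 0.0185), and without KO replicate 1, 2 or 3 or WT replicate 2 the adjusted p was 0.0793, 0.0991, 0.0871 and 0.0535. Its partner Dtx3l had 8.52, 8.99 and 9.18 CPM in KO libraries, against 7.29, 6.67 and 6.37 CPM in WT libraries. The groups did not overlap, but the log2 fold change of 0.39 ± 0.12 (SE) had an edgeR adjusted p of 0.078; it was 0.0461 by DESeq2 and 0.0174 without WT replicate 1. Parp9 and Dtx3l overlap in the genome and Parp14, another ADP-ribosyltransferase, is their neighbour; the file headers set no strand option, so reads of the overlap cannot be assigned with certainty. Parp14 overlapped between the groups, with a log2 fold change of 0.11 ± 0.12 (SE; edgeR adjusted p = 0.652).

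Among the 10 mainly gamma-driven members, 9 were tested and 1, Gbp8, was called higher, against 3.92% of all tested genes. The median log2 fold change of the 9 was 0.32, with 8 above 0 and 1 below. The guanylate-binding proteins are GTPases that coat and break open the compartments of intracellular pathogens. Gbp8 had 6.24, 6.48 and 6.19 CPM in KO libraries, against 4.58, 4.04 and 3.41 CPM in WT libraries. The groups did not overlap. Its log2 fold change was 0.65 ± 0.15 (SE; edgeR adjusted p = 0.0284). The call was lost without any KO replicate (0.123, 0.128 and 0.106 without replicates 1, 2 and 3), without WT replicate 2 (0.107) and without WT replicate 3 (0.0614).

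Gbp7 had 1.40, 1.70 and 1.47 CPM in KO libraries, against 0.951, 0.782 and 0.879 CPM in WT libraries. These groups did not overlap either, and the log2 fold change of 0.80 ± 0.27 (SE) missed the threshold (edgeR adjusted p = 0.105). The interval of the other guanylate-binding genes tested took in 0: the log2 fold change was 0.49 ± 0.25 for Gbp3, 0.32 ± 0.22 for Gbp5, 0.11 ± 0.13 for Gbp4 and -0.17 ± 0.19 for Gbp2 (SE). Gbp2 had 6.47, 8.13 and 7.80 CPM in KO libraries, against 11.2, 7.40 and 6.59 CPM in WT libraries. Its WT replicate 1 exceeded all others, and without that library the log2 fold change turned to 0.10 ± 0.15 (SE). Gbp genes are close copies of each other, so reads shared between copies may be lost or divided, and each value is uncertain to that extent.

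The immunity-related GTPases work beside the guanylate-binding proteins, and Irgm1 restrains the others. Irgm1 had 6.41, 7.81 and 7.80 CPM in KO libraries, against 5.27, 6.10 and 5.69 CPM in WT libraries. Igtp had 28.7, 29.9 and 26.2 CPM in KO libraries, against 26.0, 24.8 and 20.7 CPM in WT libraries. In both genes the KO libraries lay above the WT libraries by a narrow margin. The log2 fold change was 0.37 ± 0.14 for Irgm1 and 0.25 ± 0.10 for Igtp (SE), with edgeR adjusted p of 0.147 and 0.172. Irgm2 and Tgtp2, which the class leaves out, overlapped between the groups, at 0.14 ± 0.18 and -0.18 ± 0.53 (SE).

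Irf1, a transcription factor that interferon gamma induces and that drives many of these genes in turn, had 9.43, 9.65 and 10.5 CPM in KO libraries, against 12.3, 7.66 and 7.47 CPM in WT libraries. WT replicate 1 was above and the other WT libraries below every KO library. The log2 fold change was 0.11 ± 0.18 (SE; edgeR adjusted p = 0.791), and without WT replicate 1 it was 0.38 ± 0.13 (adjusted p = 0.0321); without WT replicate 3 it was -0.02. Irf9, the DNA-binding partner of Stat2, had a log2 fold change of -0.03 ± 0.11 (SE), and of 0.07 ± 0.09 without WT replicate 1. Irf7, which drives interferon alpha genes, had 1.03, 0.315 and 0.706 CPM in KO libraries, against 0.780, 0.339 and 0.615 CPM in WT libraries. Its libraries were scattered in both groups, and the 95% interval of its log2 fold change ran from -0.84 to 1.29.

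Among the 10 type I members, 6 were tested and 0 passed the edgeR test, against 6.39% of all tested genes in either direction. By edgeR 2 of the 6 had an unadjusted p under 0.05, against 21.1% of all tested genes. DESeq2 called 1 and limma-voom 0. The median log2 fold change of the 6 was 0.55, with 4 above 0 and 2 below. Only Mx1 and Isg15 showed no overlap between the groups, with every KO library above every WT library, against 14.4% of all tested genes. Mx1 would not have passed the filter on low counts with its WT libraries alone, so it adds no weight to these counts. The median coefficient of variation between libraries was 23.1% in KO and 40.1% in WT for the type I members, and 6.71% in KO and 14.7% in WT for the gamma members. Counts in a library ran from 2 to 332 for the tested type I members and from 30 to 1142 for the tested gamma members. The part of counting error in these spreads was not tested. Whether the 2 classes differ was not tested.

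Mx1, a dynamin-like GTPase that blocks influenza viruses, had 33, 34 and 18 counts in KO libraries, against 9, 2 and 16 counts in WT libraries, or 0.940, 0.891 and 0.489 CPM against 0.219, 0.0521 and 0.351 CPM. The groups did not overlap, but KO replicate 3 lay near WT replicate 3. The WT libraries alone would not have passed the filter on low counts, so this separation carries no weight of its own. Mx1 differed by 1.85 ± 0.56 on the log2 scale (SE; 95% interval 0.61 to 3.09), with an edgeR adjusted p of 0.0799. The adjusted p passed the threshold by DESeq2 (0.0355), without the filter on low counts (0.0138), without WT replicate 1 (0.0321) and without WT replicate 3 (0.0436). Isg15, a ubiquitin-like protein that is joined to other proteins, had 115, 68 and 60 counts in KO libraries, against 66, 20 and 48 counts in WT libraries. In CPM these were 3.28, 1.78 and 1.63 in KO libraries, against 1.61, 0.521 and 1.05 in WT libraries. KO replicate 3 and WT replicate 1 almost touched. Isg15 differed by 1.06 ± 0.40 on the log2 scale (SE; edgeR adjusted p = 0.152); the adjusted p was 0.00924 without the filter and 0.00292 without WT replicate 1.

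Oas3 and Oas1a belong to the enzymes that make oligoadenylates, the activators of RNase L. Oas3 had 5.50, 5.79 and 4.75 CPM in KO libraries, against 5.68, 3.02 and 2.28 CPM in WT libraries. WT replicate 1 lay among the KO libraries and the other WT libraries lay below them. For Oas3 the log2 fold change was 0.55 ± 0.29 (SE; edgeR adjusted p = 0.308), and without WT replicate 1 it was 1.02 ± 0.20 (adjusted p = 2.81e-04). Oas1a had a log2 fold change of 0.55 ± 0.28 (SE), with overlapping groups. Ifit2, which binds foreign RNA, had 5.84, 6.24 and 6.33 CPM in KO libraries, against 5.44, 6.12 and 7.29 CPM in WT libraries. The KO libraries lay inside the range of the WT libraries, and the 95% interval of the log2 fold change ran from -0.35 to 0.28. Ifit3, of the same family, had a log2 fold change of -0.31 ± 0.35 (SE).

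**Figure D2:**
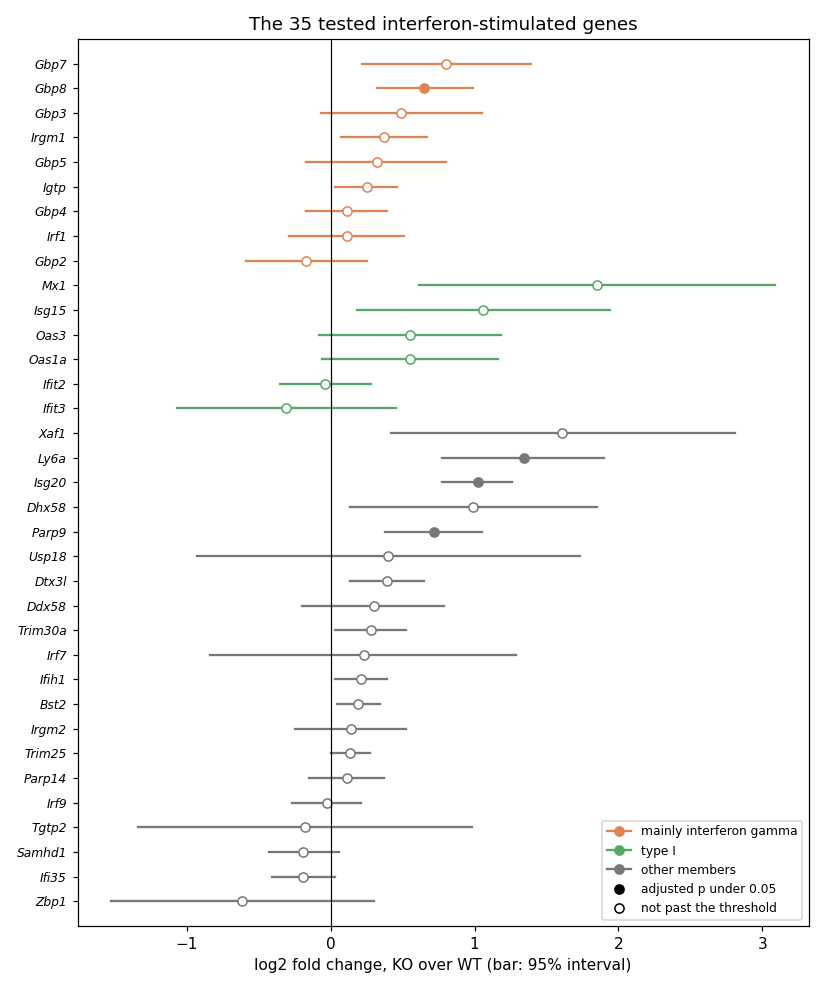
Log2 fold change of KO over WT (x axis) with its 95% interval for the 35 tested members, by class (colour), filled where the adjusted p was under 0.05. Only Gbp8, Ly6a, Isg20 and Parp9 are filled, and the widest intervals belong to members under 1 CPM in most libraries, such as Mx1, Xaf1 and Usp18.

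Of the 24 other members, 20 were tested and 3 rose (Isg20, Ly6a and Parp9), against 3.92% of all tested genes. The median log2 fold change of the 20 was 0.22. The sensors of foreign nucleic acid did not pass the test. Ifih1, a sensor of long double-stranded RNA, had 27.1, 27.8 and 31.4 CPM in KO libraries, against 23.7, 25.9 and 25 CPM in WT libraries. KO lay above WT throughout, with a log2 fold change of 0.21 ± 0.08 (SE; edgeR adjusted p = 0.172). Dhx58, a helicase that assists it, had a log2 fold change of 0.99 ± 0.39 (SE; adjusted p = 0.171). Ddx58, a sensor of viral RNA ends, overlapped between the groups at 0.30 ± 0.22 (SE), and without WT replicate 1 it was 0.60 ± 0.16 (adjusted p = 0.00679). Zbp1, a sensor that can start cell death, had 1.77, 1.05 and 2.77 CPM in KO libraries, against 3.92, 3.21 and 1.45 CPM in WT libraries. Its groups overlapped, and its log2 fold change of -0.62 ± 0.41 (SE; edgeR adjusted p = 0.443) was the lowest among the tested members.

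Bst2, which holds budding virus particles on the cell surface, had 53.2, 48.9 and 49.8 CPM in KO libraries, against 47.5, 42.6 and 43.1 CPM in WT libraries. The margin between groups was small, and the log2 fold change was 0.19 ± 0.07 (SE; edgeR adjusted p = 0.135). Samhd1, which breaks down the nucleotides that viruses need for DNA synthesis, had 61.3, 66.0 and 57.1 CPM in KO libraries, against 83.5, 66.4 and 60.3 CPM in WT libraries. WT replicate 1 was again the highest of the 6. Its log2 fold change was -0.19 ± 0.11 (SE), and without WT replicate 1 it was -0.04 ± 0.06. Xaf1, a factor tied to cell death, had 24, 16 and 15 counts in KO libraries, against 6, 10 and 4 counts in WT libraries. The groups did not overlap, and the log2 fold change of 1.61 ± 0.54 (SE) had an edgeR adjusted p of 0.111. The WT libraries alone would not have passed the filter on low counts, so this separation of Xaf1 carries no weight of its own. The ubiquitin ligases Trim25 and Trim30a had log2 fold changes of 0.13 ± 0.06 and 0.28 ± 0.11 (SE), Ifi35 had -0.19 ± 0.10, and Usp18, which removes Isg15 from proteins and dampens the type I receptor, had 0.40 ± 0.60.

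**Figure D3:**
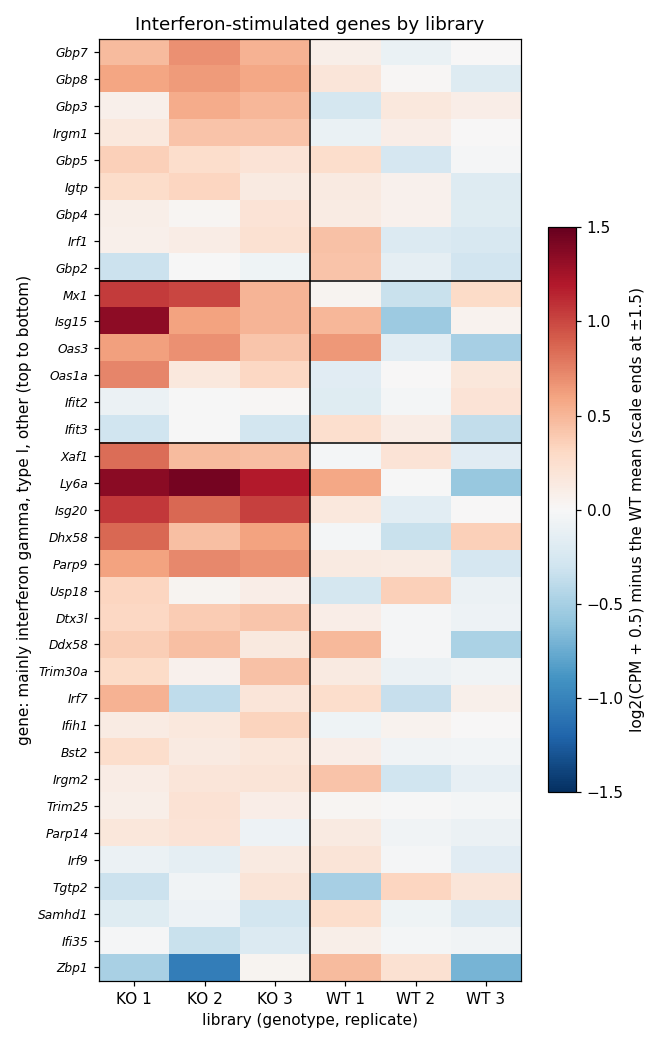
Each tested member (rows, by class) in each library (columns), as log2(CPM + 0.5) minus the mean of the WT libraries, with red above and blue below that mean and the scale ending at 1.5 either way. The median over the 35 members is 0.27, 0.21 and 0.21 in the KO libraries, against 0.13, -0.02 and -0.08 in the WT libraries.

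By library, the median of the 9 tested gamma members, on log2(CPM + 0.5) against the WT mean, was 0.16, 0.33 and 0.23 in KO replicates 1 to 3, against 0.13, 0.02 and -0.19 in WT replicates 1 to 3. For the 6 tested type I members it was 0.67, 0.38 and 0.36 in KO replicates, against 0.15, -0.09 and 0.11 in WT replicates. In both classes the KO medians lay above the WT medians, and for the gamma members KO replicate 1 and WT replicate 1 were close.

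The 9 members that did not pass the filter on low counts were Ifit1, Oas2, Oasl1, Oasl2, Rsad2, Ifi44, Rtp4, Gbp6 and Iigp1, of which 4 are in the type I class. None exceeded 18 counts in a library. Oas2 had 0, 9 and 4 counts in KO libraries, against 0 counts in all 3 WT libraries. Iigp1, an immunity-related GTPase, had 10, 6 and 18 counts in KO libraries, against 4, 2 and 0 counts in WT libraries. Ifit1 had 6, 10 and 10 counts in KO libraries, against 2, 4 and 16 counts in WT libraries. KO lay above WT for Iigp1 but not for Ifit1. Rsad2, which makes an antiviral nucleotide, had 12 counts in all over KO libraries and 6 over WT libraries, and Rtp4 had 24 over KO libraries and 8 over WT libraries. These genes had too few counts to enter the test with all libraries kept.

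Upstream of the members, interferon gamma itself rose. Ifng had 151, 124 and 124 CPM in KO libraries, against 33.5, 50.2 and 57.4 CPM in WT libraries. The lowest KO library was more than double the highest WT library, and WT replicate 1, highest among WT libraries for most members, was the lowest for Ifng. Ifng differed by 1.5 ± 0.20 on the log2 scale (SE; edgeR adjusted p = 0.00766), and its adjusted p was 0.0618 without the filter on low counts. The other 20 interferon ligand genes looked for were not tested: 18 had no count in any library, and no library held more than 4 counts of the rest.

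Of 9 receptor and kinase genes, 0 passed the edgeR test, against 6.39% of all tested genes in either direction, and 0 the limma-voom test. Only 1, Ifngr2, had an unadjusted edgeR p under 0.05, against 21.1% of all tested genes, and it was called by DESeq2. Ifngr2, the signalling chain of the interferon gamma receptor, had 27.2, 27.4 and 27.9 CPM in KO libraries, against 46.8, 34.3 and 31.3 CPM in WT libraries. All KO libraries lay below all WT libraries, and the log2 fold change of -0.45 ± 0.13 (SE) had an edgeR adjusted p of 0.0734; it was 0.00896 by DESeq2 and 0.0146 without WT replicate 1. Ifngr1 had a log2 fold change of 0.18 ± 0.12 (SE), and without WT replicate 1 it was 0.36 (adjusted p = 3.12e-04). Ifnar1, a chain of the type I receptor, had -0.02 ± 0.07, Jak1 0.07 ± 0.04, Jak2 -0.19 ± 0.10 and Tyk2 0.07 ± 0.06 (log2 fold change ± SE). Without WT replicate 1 the list held 2 genes called higher and 2 called lower: Jak2 was -0.31 (edgeR adjusted p = 1.35e-07) and Tyk2 was 0.13 (0.0283), beside Ifngr1 and Ifngr2, while Ifnar1 turned to 0.07 without passing the test. In that fit 10.6% of 15039 tested genes were called higher, and the share called lower is not given here. These counts therefore do not set the list apart. Stat2 had a log2 fold change of 0.02 ± 0.12 and Socs1, the feedback inhibitor of the kinases, -0.09 ± 0.12 (SE).

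**Figure D4:**
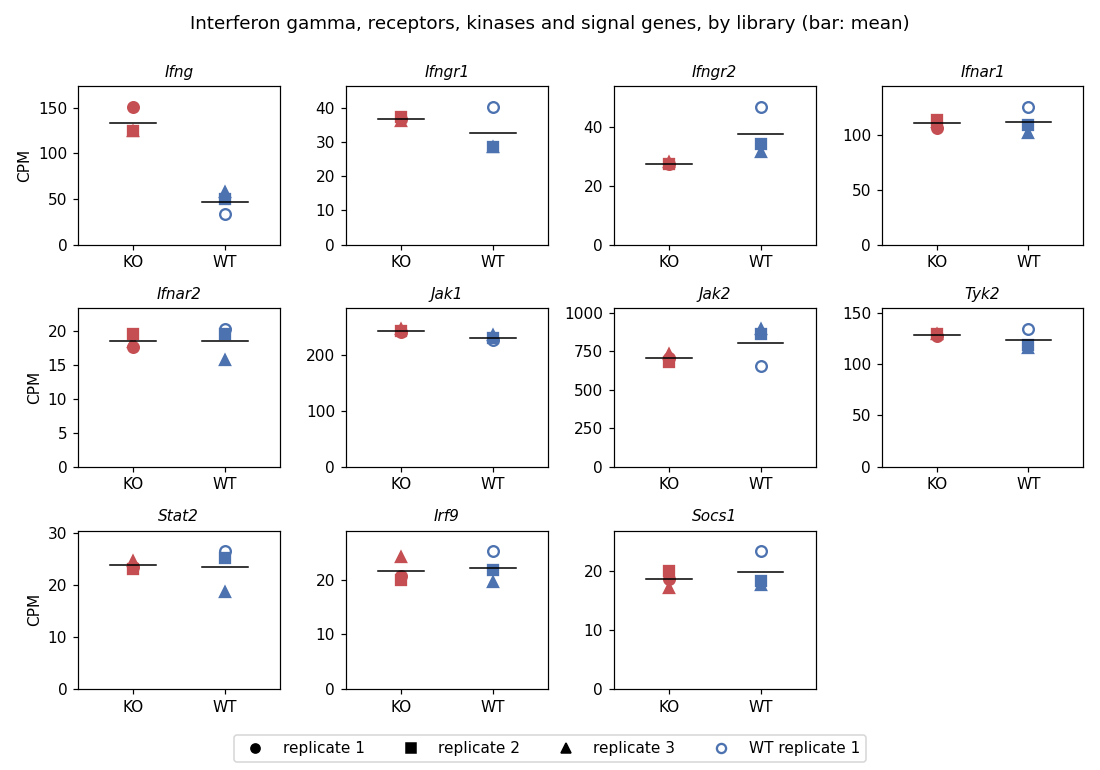
Level in CPM (y axis, from 0) of interferon gamma, its receptor chains, the type I receptor chains, kinases and signal genes in each KO and WT library, with a bar at the group mean and WT replicate 1 as an open circle. Ifng lies higher in all KO libraries, Ifngr2 lies lower in all KO libraries without passing the adjusted test, and most other genes overlap.

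Other interferon-responsive genes were read from lists that hold no member. Of all tested genes edgeR called 3.92% higher and 2.47% lower, and 21.1% had an unadjusted p under 0.05 in either direction. Among 17 tested genes mainly driven by interferon gamma, 4 rose and 0 fell by edgeR (1 was lower at an unadjusted p under 0.05, 0 by DESeq2 and 0 by limma-voom), with a median log2 fold change of 0.14. These were the protease inhibitors Serpina3f (2.03 ± 0.30, SE) and Serpina3g (1.09 ± 0.18), the immunoproteasome subunit Psmb9 (0.46 ± 0.12) and the adhesion molecule Icam1 (0.30 ± 0.08). Serpina3f had 1.68, 2.28 and 2.28 CPM in KO libraries, against 0.439, 0.417 and 0.659 CPM in WT libraries. Among 43 tested type I genes, 5 rose and 0 fell by edgeR (3 were lower at an unadjusted p under 0.05, 2 by DESeq2 and 0 by limma-voom), with a median of 0.13. They included the surface proteins Ly6c2 (2.28 ± 0.21) and Ly6e (0.98 ± 0.17), the ADP-ribosyltransferase Parp12 (1.66 ± 0.37) and Ifitm3 (0.93 ± 0.11), which blocks virus entry; Ifi27 (0.60 ± 0.14) was the fifth, named after its value was seen. Ifitm3 had 13.6, 13.8 and 12.5 CPM in KO libraries, against 7.02, 6.59 and 7.25 CPM in WT libraries. The groups of Serpina3f and Ifitm3 were far apart. Parp12 had 15, 9 and 16 counts in WT libraries. It would not have passed the filter on low counts with these alone, so its call carries no weight of its own. Of 9 tested negative regulators 1 rose, Nlrc5 (0.30 ± 0.08; edgeR adjusted p = 0.0466), which is also known as an activator of MHC class I genes, and of 11 tested sensing genes 1 rose, the DNA sensor Aim2 (0.38 ± 0.08; edgeR adjusted p = 0.0232). These single calls were 11.1% and 9.09% of the genes tested in their lists, beside 6.39% of all tested genes in either direction. A single call in lists this short does not set them apart. The sensing genes had a median of -0.01, and 4 of them were lower at an unadjusted p under 0.05, with 0 called lower by edgeR, 1 by DESeq2 and 0 by limma-voom. Serpina3f, Serpina3g, Ly6c2, Ly6e and Ifitm3 stayed past the threshold under each alternative they entered. Psmb9, Icam1, Parp12, Ifi27, Nlrc5 and Aim2 each missed it without any 1 of the KO replicates (adjusted p of 0.0703 to 0.216) and without WT replicate 2 (0.108 to 0.2); Psmb9, Icam1 and Nlrc5 also missed it without WT replicate 3 (0.0837, 0.0857 and 0.086) and with the stricter filter (0.0532, 0.0579 and 0.0579), and Icam1 and Nlrc5 by limma-voom (0.0501 and 0.0518).

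Summed levels of markers of other cells differed between the genotypes for several lists, in part through few genes. Summed levels of the 4 gamma delta T cell markers were 95.4 to 101 CPM in KO libraries and 50 to 62.2 CPM in WT libraries, and those of the 7 natural killer and innate lymphoid markers were 11.7 to 14.9 CPM in KO libraries and 6.12 to 9.36 CPM in WT libraries, with Ncr1, Klrb1c and Klra8 at 0. All 4 gamma delta markers were called higher, as were Eomes and Gzma of the natural killer list, against 3.92% of all tested genes. Klre1, the other natural killer marker that was tested, was lower in every KO library and was not called. It had 0.285, 0.262 and 0.136 CPM in KO libraries, against 1.19, 0.365 and 0.308 CPM in WT libraries (log2 fold change -1.44 ± 0.62, SE, edgeR adjusted p = 0.205). The 8 B cell markers summed to 96.9 to 103 CPM in KO libraries and 68.7 to 81.8 CPM in WT libraries, of which Ighm made up 82.8 to 87.5 CPM in KO libraries and 46.2 to 62.1 CPM in WT libraries; Ighm and Cd79b were called higher and Ebf1 lower. The 10 dendritic cell markers summed to 208 to 216 CPM in KO libraries and 148 to 156 CPM in WT libraries, with Clec9a and Siglech at 0, and Cd74 and H2-Aa were the 2 called, both higher. The 12 myeloid markers summed to 110 to 118 CPM in KO libraries and 102 to 109 CPM in WT libraries, with S100a8 and S100a9 at 0. Cebpb alone averaged 101 CPM in KO libraries and 98.5 CPM in WT libraries and was not called (log2 fold change 0.04 ± 0.06, SE); Fcer1g was the 1 myeloid marker called, higher in KO, and Cd14, Csf1r, Fcgr3 and Ly6g had lower means in KO. The 7 Th17 markers summed to 98.4 to 102 CPM in KO libraries and 190 to 289 CPM in WT libraries. For each of these 6 lists the exact two-sided permutation p was 0.1, the smallest that 3 against 3 libraries can give. The CD8 T cell markers overlapped between the groups, at 12.4 to 16.6 CPM in KO libraries and 14.1 to 16 CPM in WT libraries (exact permutation p = 1), as did the summed CD4 T cell markers (exact permutation p = 0.9). Within that list Cd4 itself had 217, 235 and 224 CPM in KO libraries, against 342, 269 and 259 CPM in WT libraries, lower in every KO library at a log2 fold change of -0.36 ± 0.09 (SE; edgeR adjusted p = 0.0504). Cd3g was higher in every KO library, at 0.30 ± 0.09 (SE; edgeR adjusted p = 0.078). The part of these cells in the levels of the interferon-stimulated genes was not tested.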

How the data were processed

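Per the labels' protocols, TRIzol was used for RNA and a TruSeq kit for the libraries. Per the file headers, the authors deposited unnormalized counts from featureCounts on GENCODE vM33, with exons summed by gene and no strand, paired-end or multi-mapping option printed. KO replicate 1 has a command without option names or version. Genome build and aligner version: not given in the sources used here. The authors' deposited column of WT replicate 2, entered as other in the record of units, holds raw counts like the rest. Even numbers made up 65.6% to 67.7% of the counts between 1 and 20 and 48.8% to 50.9% of those from 1000 upwards, so a count may not be an independent fragment. Floors of 3 counts cover counting error only. Gene IDs matched a symbol for 51948 of 56941 (91.2%).

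Of 13 samples, the 6 RNA-seq libraries were used and 7 chromatin samples were not analysed here. KO was compared with WT by edgeR 4.0.16 (R 4.3.3; TMM, default filter on low counts, robust quasi-likelihood F-test), with Benjamini-Hochberg adjustment over 14681 genes and a threshold of 0.05; the script was tested on simulated data. Fold changes are KO over WT, the SE was taken as |log2 fold change| divided by the root of F, CPM values use TMM library sizes (factors 0.9837 to 1.016), and the biological coefficient of variation was 9.28%. DESeq2 1.42.0, limma 3.58.1 (voom), RLE factors, other filters, a replicate block and leaving out each library were alternatives. No gene lengths are given, so levels were not compared between genes, and the rule of naming members by level per length could not be applied; values per library are given for called members and for others chosen after their values were seen. From the other pathway lists, the 4 called genes with the largest change were named; the receptors, kinases and signal genes printed were named whatever their result. Motif searches used RefSeq promoter windows of GRCm38.p6. The members, classes and lists were chosen with earlier results of these data known. Some results are not reported here.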

Additional observations from a re-analysis of the deposited data

How the results depend on the processing

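The number of called genes was 938, 1568 without the filter on low counts and 295 to 2961 when single libraries were left out. Called members numbered 4, and 1 to 15 with single libraries left out. By class the mainly gamma-driven count was 1 (0 to 3 with libraries left out), the type I count 0 (1 by DESeq2, 2 without the filter, 0 to 3 with libraries left out) and that of the other members 3 (1 to 9 with libraries left out). The pathway lists held 12 called genes, 20 by DESeq2, 23 without the filter, 6 with the stricter filter (at least 1 CPM in 3 libraries and a mean of at least 5 CPM) and 6 to 34 with libraries left out; in each case the highest count came without WT replicate 1. The causes were not tested. RLE factors and limma-voom changed no member's call. The stricter filter left 21 members, all with the same call.

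Shared replicate numbers did not pair the libraries: the correlation of deviations was -0.0398, -0.0281 and 0.000874 for numbers 1 to 3. With the replicate block 671 genes and 3 members were called, Gbp8 missed the threshold (adjusted p = 0.0502) so that the gamma count was 0, and no other member's call changed. Of the pathway genes named, Psmb9, Nlrc5 and Parp12 missed it under the block (0.0626, 0.0522 and 0.0533).

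The log2 fold change of members near 0 changed sign when single libraries were left out. It ran from -0.02 to 0.38 for Irf1, with -0.0033 without WT replicate 2. The range was -0.19 to 0.57 for Irf7, -0.12 to 0.07 for Irf9, -0.13 to 0.09 for Ifit2, -0.32 to 0.10 for Gbp2, -0.01 to 0.39 for Irgm2 and -0.56 to 0.15 for Tgtp2. Usp18, Mx1, Xaf1, Tgtp2 and Irf7, each under 1 CPM on average in both groups, had the widest 95% intervals among the tested members.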

Other observations

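Ly6a lies in a group of Ly6 genes that encode lipid-anchored surface proteins, and 11 of them are on its chromosome in RefSeq. This group was chosen after the values of Ly6a, Ly6c2 and Ly6e had been seen. The 3 that were tested are these same genes and all rose, against 3.92% of all tested genes called higher, so the choice fixed this count. The other 8 did not pass the filter on low counts. Ly6c2 had 7.32, 7.55 and 5.81 CPM in KO libraries, against 1.22, 1.85 and 1.21 CPM in WT libraries, with no overlap and a log2 fold change of 2.28 ± 0.21 (SE; edgeR quasi-likelihood test, Benjamini-Hochberg adjusted p = 9.43e-05). Ly6e had 52.4, 59.4 and 55.2 CPM in KO libraries, against 37.7, 24.6 and 22.7 CPM in WT libraries, with a log2 fold change of 0.98 ± 0.17 (SE; edgeR adjusted p = 0.0119). Ly6c1, a close copy of Ly6c2, had 0, 2 and 2 counts in KO libraries, against 16, 2 and 1 counts in WT libraries, and reads that fit both copies may be lost or divided.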
